A study of Mus musculus with 5 samples.

Results

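Leukocyte integrins and adhesion molecules were examined through 10 genes chosen by symbol, namely Vcam1, Icam1, Itgal, Itgam, Itgb2, Itga4, Itgb1, Itgav, Itgb5 and Selplg. All 10 were found among the 41388 genes of the count table, and all 10 were among the 12240 genes that passed the filter on low counts. RNA had been sequenced in bulk from brain microglia, the resident macrophages of the brain, sorted as eYFP-positive cells from C57Bl/6 mice aged 4 weeks. The A20 deletion group held 3 libraries, with the genotype given as eYFP-A20Dmg and the cells described as fully deficient in A20. The control group held 2 libraries of the genotype eYFP-A20fl/wt Cx3cr1-CreERT2/+, described as partially deficient, so the controls themselves carry 1 floxed allele of A20. Both groups received 2 mg tamoxifen on postnatal days 14 and 16, and both carry an eYFP reporter. The tamoxifen-inducible Cre sits in the Cx3cr1 locus, which is also active in other mononuclear phagocytes, and the label of the deletion genotype does not spell out its alleles. No group with intact A20 was analysed here. Whether the libraries came from separate animals is not stated. The p-values therefore rest on the spread among these libraries, and that spread may be in part technical.

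Adhesion of leukocytes to vessel walls and to other cells runs in steps. Selectins on endothelium catch glycoprotein ligands such as the product of Selplg, integrins on the leukocyte are then switched on, and the activated integrins grip immunoglobulin-type ligands such as VCAM1 and ICAM1. Each integrin is a pair of 1 alpha and 1 beta chain. In microglia the pair of Itgam and Itgb2 products (CD11b with CD18, also called Mac-1 or complement receptor 3) is the classical surface marker and binds complement C3 fragments, and alpha-v integrins bind matrix proteins and release TGF-beta from its latent complex. A20, the product of Tnfaip3, edits ubiquitin chains and thereby limits NF-kB signalling, a pathway known to drive Vcam1 and Icam1.

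The libraries held 11902432, 12883827 and 9726334 counts in the A20 deletion group and 13946211 and 15275199 in the control group, and 3 counts corresponded to 0.196 to 0.308 CPM. CPM is the count of a gene relative to the library total, which is scaled here by the trimmed mean of M values. A20 deletion replicate 1 stood apart on the second principal component (22.9% of variance), at -57.6 against 5.55 to 32.8 for the other 4 libraries. Transcripts encoded by mitochondria made up 0.848%, 4.63% and 3.56% of the counts of A20 deletion replicates 1 to 3, against 1.19% and 0.852% in control replicates 1 and 2. Xist, the transcript of the inactive X chromosome, was counted 616 times in A20 deletion replicate 1 and 780 times in control replicate 1, and 0 times in the other 3 libraries. The 12 microglial markers summed to 44770, 46560 and 41430 CPM in A20 deletion libraries and to 56600 and 62510 CPM in the controls. By edgeR 1 of them (Fcrls) was called lower and 0 higher, where 0.507% of all tested genes were called lower and 2.08% higher. At an unadjusted p under 0.05 by edgeR there were 8, where 21.0% of all genes had such a p. DESeq2 called 6 and limma-voom 1 (9.07% and 1.72% of all genes). The median log2 fold change of the 12 markers was -0.47, against 0.05 over all tested genes. Tnfaip3 was measured at 294.6, 276.9 and 347.5 CPM in A20 deletion and 454.1 and 94.75 CPM in control libraries (log2 fold change 0.16, SE 0.55, edgeR adjusted p = 0.881). These whole-gene counts cannot show whether the deletion took place, since the exons removed are not stated. In bulk RNA, fewer cells of a kind and less RNA per cell cannot be told apart.

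Vcam1, an endothelial and macrophage ligand of the alpha-4 integrins, and Itgal, the alpha chain of the lymphocyte integrin LFA-1, rose 9.97-fold and 10.2-fold in the A20 deletion libraries. Summed endothelial and mural markers (40.72 to 106.4 CPM in A20 deletion, 23.76 and 25.6 CPM in control libraries) and T and NK cell markers (6.213 to 10.83 CPM in A20 deletion, 0.9248 and 1.604 CPM in control libraries) were higher in them too. So were the B cell, monocyte, oligodendrocyte and neuron marker sums, whereas the neutrophil, border macrophage, dendritic cell and astrocyte sums overlapped between the groups. Without A20 deletion replicate 1, the library that stood apart, Vcam1 and Itgal were still called by edgeR (log2 2.86 and 2.96, adjusted p = 0.000152 and 0.00376), in a fit that called 32.4% of all genes. Leaving out either control ended both calls (adjusted p = 0.139 and 0.197 for Vcam1, 0.234 and 0.325 for Itgal), and Itgal also lost its call when A20 deletion replicate 3 was left out (0.092) or limma-voom was used (0.123). With all 5 libraries, the chains that make up most of the integrin transcripts of these cells, Itgam, Itgb2, Itgb5 and Itgb1, and the selectin ligand Selplg were not called. Itgav, the alpha-v chain, was 2.26-fold lower on average and also was not called. The fit without A20 deletion replicate 1 called 3 of the 10 lower, Itgam (log2 -0.93, edgeR adjusted p = 0.00206), Itgb1 (-0.54, 0.0118) and Itgav (-1.51, 0.000975). By edgeR's quasi-likelihood test at an adjusted p under 0.05, 2 of the 10 genes were called higher and 0 lower, where 2.59% of all tested genes were called, 2.08% higher and 0.507% lower. At an unadjusted p under 0.05 the edgeR counts were 2 higher and 2 lower (Itgav and Itgb1), where 2575 of all 12240 genes (21.0%) had such a p. DESeq2 called 2 of the 10 higher and 1 lower (6.08% and 2.99% of all genes). Limma-voom called 1 of the 10 higher and 0 lower (1.36% and 0.368% of all genes). In either direction DESeq2 called 9.07% of all genes and limma-voom 1.72%. In 7 of the 10 genes the groups did not overlap, 4 with all A20 deletion libraries above both controls and 3 with all below. Over all tested genes the groups did not overlap in 40.2% (21.8% above and 18.5% below the controls), so the absence of overlap alone does not set these genes apart. The median log2 fold change was 0.12 over the 10 genes and 0.05 over all tested genes.

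**Figure D1:**
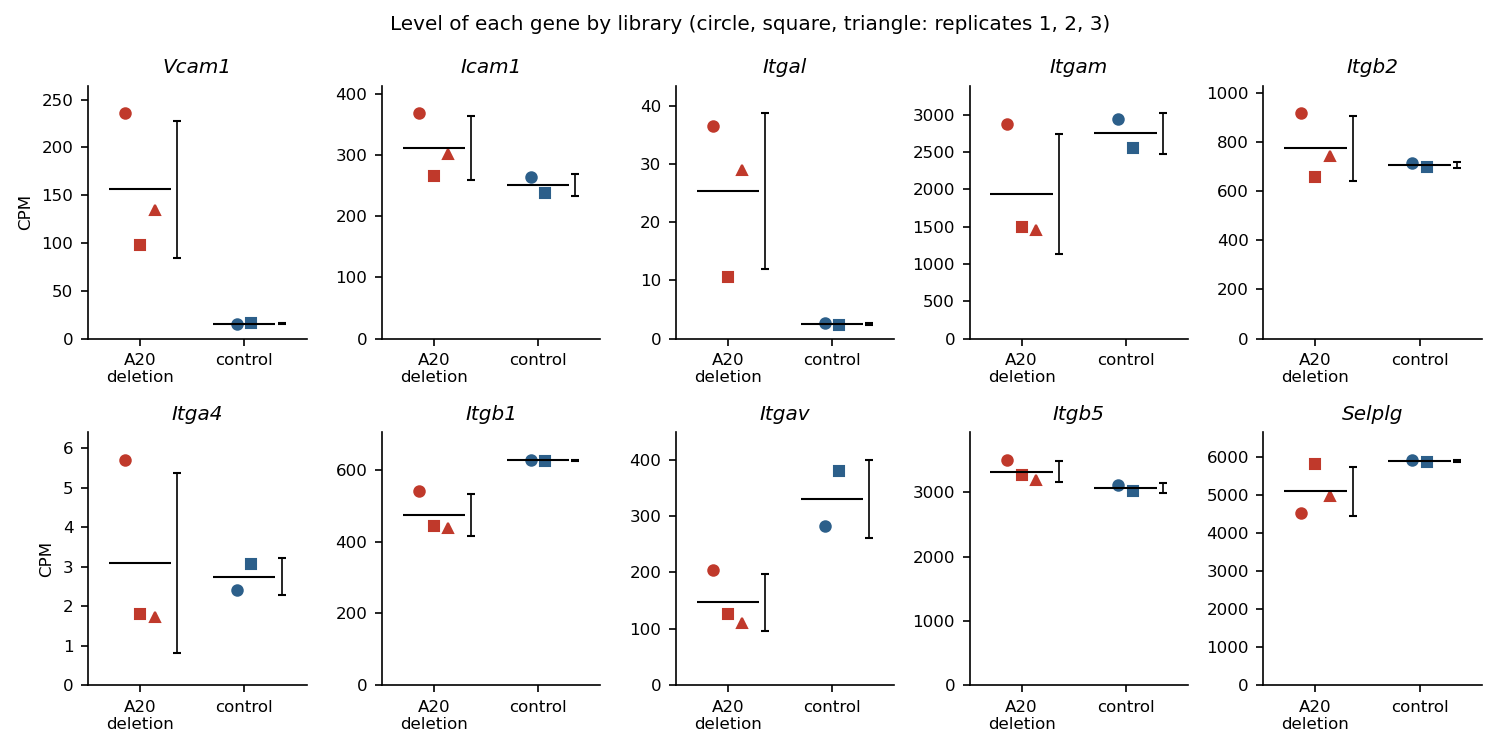
Level of each of the 10 genes in CPM (linear axes from 0), with 1 point per library, A20 deletion in red on the left and control in blue on the right. Horizontal lines are group means and bars are ± 1 SD (n = 3 and n = 2); Vcam1 and Itgal show no overlap, whereas A20 deletion replicate 1 (circle) lies at the control level for Itgam and above all other libraries for Itga4.

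Vcam1 (ENSMUSG00000027962, GRCm38 chromosome 3, 116109949 to 116129688, minus strand) had 2724, 1245 and 1317 reads in A20 deletion replicates 1 to 3, against 217 and 247 in the controls. These counts correspond to 236.0, 97.87 and 134.1 CPM in A20 deletion and to 15.44 and 15.84 CPM in control libraries. Every A20 deletion library lay far above both controls, which were nearly alike, and A20 deletion replicate 1 was the highest. The means were 156.0 ± 71.61 CPM (SD, n = 3) in A20 deletion and 15.64 ± 0.2887 CPM (SD, n = 2) in control libraries. The log2 fold change was 3.32 (SE 0.40, 9.97-fold, edgeR adjusted p = 0.0126), above that of 98.3% of tested genes. It lay between 2.86 and 3.92 over 18 settings of the analysis and was called in 16 of them (adjusted p 2.48e-28 to 0.197). The call was lost when either control was left out, with an adjusted p of 0.139 without replicate 1 and 0.197 without replicate 2. These fits called 18 genes (0.139%) and 0 genes (0.0%), with 1367 and 1323 at an unadjusted p under 0.05 by edgeR, and the lone control is assumed in them to vary like the A20 deletion libraries. Antisense Gm43109 shares 61 exon bases with Vcam1, and reads of the pair cannot be told apart without a stated strand setting.

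Icam1 (ENSMUSG00000037405, chromosome 9, 21015985 to 21028817, plus strand) encodes the counter-receptor of the Itgal and Itgam integrins and is a textbook target of NF-kB and of interferon-gamma. It stood at 369.1, 265.6 and 302.3 CPM in A20 deletion microglia and at 264.1 and 238.4 CPM in controls. The 3 A20 deletion libraries lay above both controls, but the lowest of them only narrowly. The means were 312.3 ± 52.45 CPM in A20 deletion and 251.3 ± 18.16 CPM in control libraries, a log2 fold change of 0.31 (SE 0.19, 1.24-fold, edgeR adjusted p = 0.361). In none of the 18 settings was Icam1 called (log2 0.15 to 0.56). Antisense Gm47079 shares 511 exon bases with it. The Icam1 promoter is shown because it is the only one of the 6 promoters searched with the NF-kB-type letters GGANNTTCC, where N is any base.

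In the RefSeq sequence of GRCm38.p6, plus strand, chr9:21015690-21015989, capitals mark GGANNTTCC, an NF-kB-type site, and TTCNNNGAA, the STAT site called GAS:
Icam1: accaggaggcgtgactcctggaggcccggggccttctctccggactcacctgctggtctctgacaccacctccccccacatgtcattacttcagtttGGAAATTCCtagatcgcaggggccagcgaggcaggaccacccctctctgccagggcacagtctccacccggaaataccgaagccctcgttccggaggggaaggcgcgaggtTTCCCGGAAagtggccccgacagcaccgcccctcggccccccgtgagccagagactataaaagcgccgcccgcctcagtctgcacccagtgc
The first begins at position -153 and the second at -42 from the RefSeq start. GGANNTTCC stands in 4.26% and TTCNNNGAA in 8.3% of the 32851 promoters of the same length. Of the 10 genes, 6 had an entry in the RefSeq promoter table (Icam1, Itgam, Itga4, Itgav, Itgb5 and Itgb1). None of the 6 windows held the longer kB consensus (8.46% of all promoters) or the core of the interferon-stimulated response element (3.44%; a pair of GAAA runs, with 2 bases between them), searched on both strands. A match is a run of letters and not a measured binding site, and no match says only that these letters are not in this window.

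The leukocyte-specific beta-2 chain Itgb2 pairs with Itgal, Itgam or Itgax, and in humans its loss causes leukocyte adhesion deficiency. Itgal (ENSMUSG00000030830, chromosome 7, 127296260 to 127335138, plus strand) had 422, 134 and 284 reads in the A20 deletion libraries and 37 and 36 in the controls. Its level was 36.56, 10.53 and 28.93 CPM in A20 deletion and 2.632 and 2.309 CPM in control libraries. All A20 deletion libraries lay above both controls, with replicate 2 the lowest of them. Itgal averaged 25.34 ± 13.38 CPM in A20 deletion (SD, n = 3) and 2.471 ± 0.2282 CPM in control libraries (SD, n = 2), and the log2 fold change was 3.35 (SE 0.56, 10.2-fold, edgeR adjusted p = 0.0312; log2 2.96 to 3.89 over 18 settings). Itgal was called in 14 settings (adjusted p 3.83e-18 to 0.325), and the call was lost with limma-voom (adjusted p = 0.123), without A20 deletion replicate 3 (0.092, 0.769% of all genes called) and without control replicate 1 (0.234) or 2 (0.325).

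Itgam (ENSMUSG00000030786, chromosome 7, 128062640 to 128118491, plus strand) stood at 2869, 1496 and 1450 CPM in A20 deletion microglia and at 2941 and 2557 CPM in controls. A20 deletion replicate 1 lay within the range of the controls, and replicates 2 and 3 lay well below them. The log2 fold change was -0.50 with SE 0.30 (edgeR adjusted p = 0.364), with means of 1938 ± 806.2 CPM in A20 deletion and 2749 ± 271 CPM in control libraries. Without A20 deletion replicate 1 it was -0.93 and called (adjusted p = 0.00206), in a fit that called 32.4% of all genes, and without A20 deletion replicates 2 and 3 it was 0.07. Over 18 settings the adjusted p of Itgam ranged from 0.00206 to 0.912. A20 deletion replicate 1 therefore decides both the size and the call of Itgam. Gm49368, on the same strand, shares 3450 exon bases with Itgam and was not analysed here, so the count of Itgam depends on how the counting treated shared reads.

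Itgb2 itself (ENSMUSG00000000290, chromosome 10, 77530252 to 77565708, plus strand) stood at 919.7, 660.3 and 745.5 CPM in A20 deletion and at 716.6 and 697.7 CPM in control libraries. The groups overlapped, with A20 deletion replicate 2 below both controls. It averaged 775.2 ± 132.2 CPM in A20 deletion (SD, n = 3) and 707.2 ± 13.35 CPM in control libraries (SD, n = 2). Its log2 fold change was 0.13 with SE 0.18 (edgeR adjusted p = 0.679), and it was -0.04 without A20 deletion replicate 1.

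The Itgam promoter is shown because its level split the A20 deletion libraries and because the myeloid factor PU.1 is known to drive it. In the RefSeq sequence of GRCm38.p6, plus strand, chr7:128062390-128062689, capitals mark GAGGAA, the PU.1 core, or its reverse complement TTCCTC:
Itgam: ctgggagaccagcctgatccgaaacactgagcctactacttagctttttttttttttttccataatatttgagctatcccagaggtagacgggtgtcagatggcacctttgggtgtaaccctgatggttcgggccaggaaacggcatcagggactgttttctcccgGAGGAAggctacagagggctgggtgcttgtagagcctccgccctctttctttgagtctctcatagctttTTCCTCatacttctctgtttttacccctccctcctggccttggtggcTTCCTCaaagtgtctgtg
The copies begin at -84, -15 and 33 from the start, the first on the plus strand and the others on the minus strand. This core stands in 28.3% of all promoters of this length, among them also those of Itgav and Itgb1.

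Itga4 and Itgb1 encode VLA-4, the integrin that binds VCAM1. Itga4 (ENSMUSG00000027009, chromosome 2, 79255426 to 79333123, plus strand) was barely detected, with 66, 23 and 17 reads in the A20 deletion libraries and 34 and 48 in the controls. These are 5.718, 1.808 and 1.732 CPM in A20 deletion and 2.419 and 3.079 CPM in control libraries. A20 deletion replicate 1 was the highest of the 5 libraries and the other A20 deletion libraries the lowest. The log2 fold change was 0.17 with SE 0.63 (edgeR adjusted p = 0.892), and it ranged from -0.66 without A20 deletion replicate 1 to 1.06 without A20 deletion replicates 2 and 3. No direction can be given for Itga4 at this depth.

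Itgb1 (ENSMUSG00000025809, chromosome 8, 128685654 to 128733200, plus strand), the common beta-1 chain of matrix-binding integrins, stood at 543.8, 443.6 and 437.7 CPM in A20 deletion and at 629.8 and 627.0 CPM in control libraries. All A20 deletion libraries lay below both controls, which were nearly alike. The means were 475 ± 59.64 CPM (SD, n = 3) in A20 deletion and 628.4 ± 1.961 CPM (SD, n = 2) in control libraries, a log2 fold change of -0.40 (SE 0.16, unadjusted p = 0.0409, edgeR adjusted p = 0.221). Without A20 deletion replicate 1 Itgb1 was called (log2 -0.54, adjusted p = 0.0118; 0.0118 to 0.751 over 18 settings).

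Itgav pairs with Itgb5, Itgb1, Itgb3, Itgb6 or Itgb8 and binds proteins with an arginine-glycine-aspartate motif. Itgav (ENSMUSG00000027087, chromosome 2, 83724397 to 83806916, plus strand) stood at 204.5, 125.9 and 109.8 CPM in A20 deletion microglia and at 282.0 and 380.1 CPM in controls. The groups did not overlap, and A20 deletion replicate 1 was the closest to the controls. The means were 146.7 ± 50.64 CPM (SD, n = 3) in A20 deletion and 331.1 ± 69.32 CPM (SD, n = 2) in control libraries. The log2 fold change of -1.17 (SE 0.29, 2.26-fold lower) had an unadjusted p of 0.00445 and an edgeR adjusted p of 0.0915, so it missed the threshold, although 1.18% of tested genes had a lower fold change. It was negative in all 18 settings (-1.51 to -0.68). Itgav was called in 3 of them, by DESeq2 (adjusted p = 0.00421), without a filter on low counts (2.38e-06, 8.22% of all genes called) and without A20 deletion replicate 1 (0.000975), and the highest adjusted p was 0.465. Gm13684, on the opposite strand, shares 634 exon bases with Itgav and had 3, 101 and 62 reads in A20 deletion libraries and 0 and 7 in controls.

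Itgb5 (ENSMUSG00000022817, chromosome 16, 33829665 to 33949338, plus strand), which forms the vitronectin receptor with Itgav, is highly expressed in microglia. It stood at 3513, 3265 and 3198 CPM in A20 deletion and at 3119 and 3017 CPM in control libraries. The groups did not overlap, but the nearest libraries were close, and Itgb5 averaged 3325 ± 165.8 CPM in A20 deletion and 3068 ± 72.2 CPM in control libraries. Its log2 fold change was 0.12 with SE 0.13 (edgeR adjusted p = 0.606; log2 0.04 to 0.20 over 18 settings).

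The Itgav promoter is shown for comparison with Itgam, since it holds the same PU.1 core letters. In the RefSeq sequence of GRCm38.p6, plus strand, chr2:83724147-83724446, capitals again mark GAGGAA or TTCCTC:
Itgav: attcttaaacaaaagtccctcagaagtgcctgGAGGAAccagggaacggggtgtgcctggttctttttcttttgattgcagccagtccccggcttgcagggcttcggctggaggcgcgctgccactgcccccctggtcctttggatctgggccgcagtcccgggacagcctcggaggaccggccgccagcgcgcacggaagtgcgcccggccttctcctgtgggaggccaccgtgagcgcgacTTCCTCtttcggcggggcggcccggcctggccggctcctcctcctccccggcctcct
The copies begin at -218 and -7 from the start. The promoter windows of Itga4 and Itgb5 held none of the motifs searched.

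Selplg (ENSMUSG00000048163, chromosome 5, 113818536 to 113832644, minus strand) encodes PSGL-1, the ligand of P-selectin, and is a well-known marker of resting microglia. It stood at 4547, 5818 and 4972 CPM in A20 deletion and at 5933 and 5882 CPM in control libraries. All A20 deletion libraries lay below both controls, replicate 2 only narrowly. Selplg averaged 5112 ± 647.4 CPM in A20 deletion and 5908 ± 36.31 CPM in control libraries. The log2 fold change was -0.21 with SE 0.14 (edgeR adjusted p = 0.423), and it was negative in all 18 settings (-0.37 to -0.14) without being called in any.

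**Figure D2:**
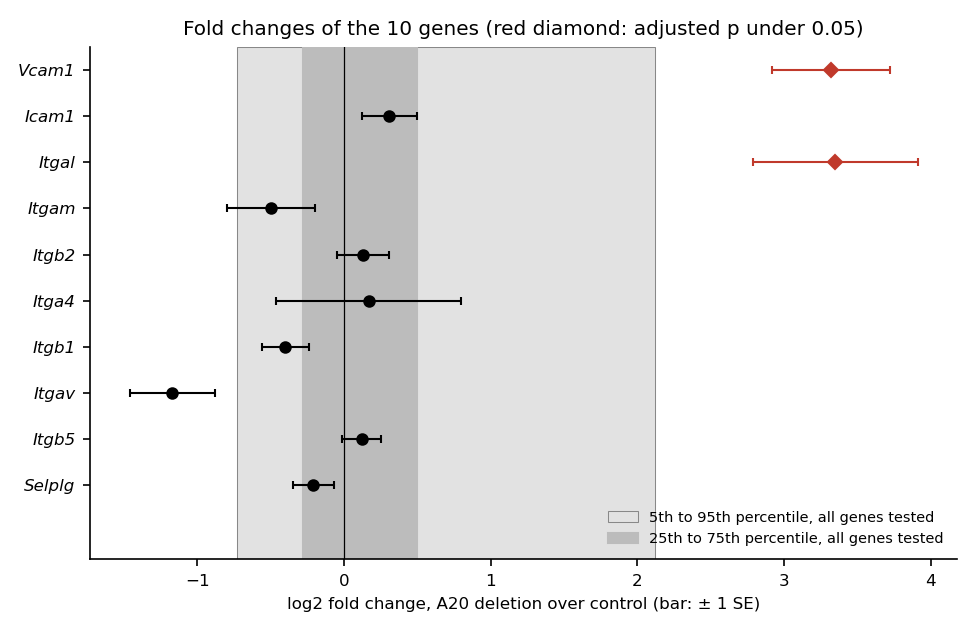
Log2 fold change of each gene, A20 deletion over control, with ± 1 SE; diamonds are genes with an edgeR adjusted p under 0.05. Grey bands span the 5th to 95th (-0.73 to 2.12) and 25th to 75th (-0.28 to 0.50) percentiles of all tested genes: Vcam1 and Itgal lie to the right of the wider band, and Itgav lies to its left without being called.

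Levels can be compared between genes per length, as CPM per kilobase of annotated exon. On this scale the order in A20 deletion microglia was Selplg (mean 1197), Itgb5 (935.9), Itgam (385.8), Itgb2 (254.0), Itgb1 (116.4), Icam1 (71.64), Vcam1 (17.59), Itgav (13.66), Itgal (3.858) and Itga4 (0.2208). In the controls it was Selplg (1383), Itgb5 (863.5), Itgam (547.2), Itgb2 (231.7), Itgb1 (154.0), Icam1 (57.63), Itgav (30.81), Vcam1 (1.763), Itgal (0.3761) and Itga4 (0.1967). Vcam1 thus stood above Itgav in the A20 deletion mean and below it in the controls, but the ranges of that pair overlapped among the A20 deletion libraries, as did those of Itgam and Itgb2. All other neighbours in either order did not overlap. Itgal, despite its 10.2-fold rise, remained the second lowest of the 10 per length in both groups.

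Chains that pair were also compared as ratios of CPM within a library, which do not depend on library scaling. The ratio of Itgal to Itgb2 was 0.0398, 0.016 and 0.0388 in the A20 deletion libraries and 0.00367 and 0.00331 in the controls, a difference of 3.06 in mean log2 ratio. The ratio of Itgam to Itgb2 was 3.12, 2.27 and 1.95 in A20 deletion and 4.1 and 3.67 in control libraries (difference -0.70). Both sets of values were fully separated between the groups, in opposite directions. The ratio of Itgav to Itgb1 was 0.376, 0.284 and 0.251 in A20 deletion and 0.448 and 0.606 in control libraries (difference -0.80). For Itgb5 over Itgav it was 17.2, 25.9 and 29.1 in A20 deletion against 11.1 and 7.94 in controls (difference 1.33). The separation of these 4 ratios gave an exact two-sided permutation p of 0.2 each (0.25 adjusted over 5 ratios). This test doubles the smaller one-sided p, so 0.2 is its smallest value over the 10 arrangements of 3 against 2 libraries. A p of 0.05 cannot be reached. The ratio of Itga4 to Itgb1, the VLA-4 chains, overlapped between groups (0.0105, 0.00408 and 0.00396 in A20 deletion, 0.00384 and 0.00491 in controls; exact permutation p = 0.8).

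**Figure D3:**
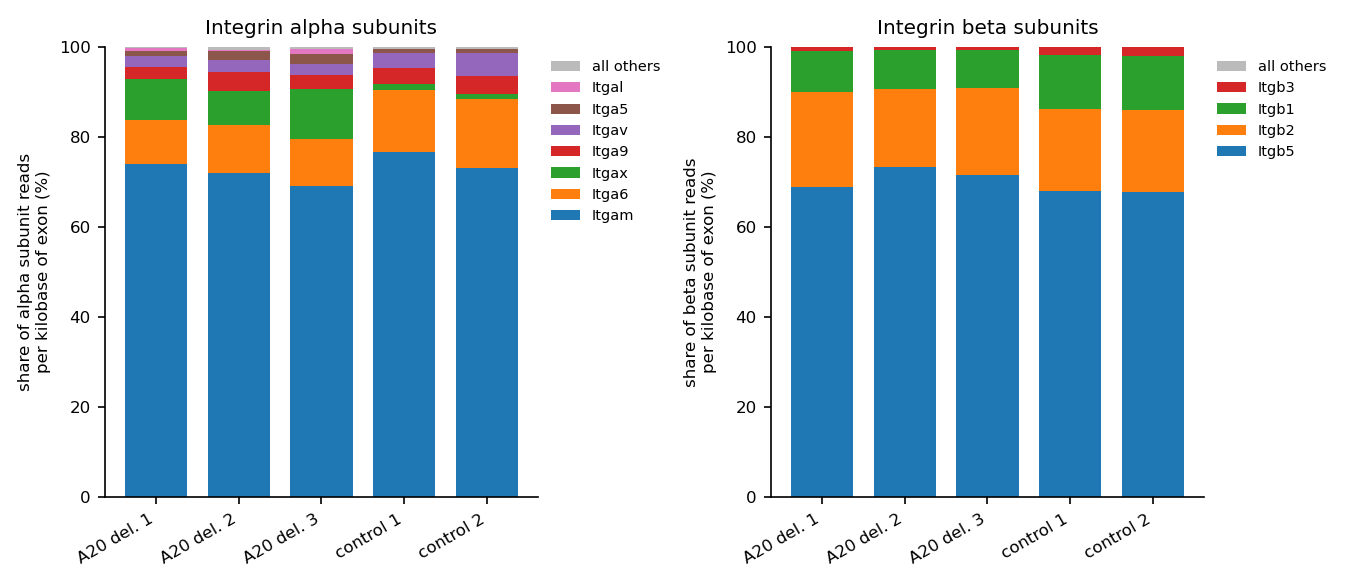
Share of integrin alpha (left, 18 genes) and beta (right, 8 genes) transcripts per kilobase of exon held by each chain, with 1 bar per library, A20 deletion left of control. Itgam takes 69.1% to 76.6% of the alpha chains and Itgb5 67.7% to 73.3% of the beta chains in all 5 libraries, whereas Itgax takes 7.61% to 11.2% in A20 deletion and 1.06% to 1.18% in control libraries.

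Of all 18 alpha chains per length, Itgam held 73.9%, 71.9% and 69.1% in the A20 deletion libraries and 76.6% and 73.2% in the controls. Itgal held 0.72%, 0.387% and 1.05% in A20 deletion and 0.0524% and 0.0505% in control libraries. Itgav held 2.46%, 2.83% and 2.45% in A20 deletion and 3.44% and 5.09% in control libraries. The Itgam share overlapped between the groups, the Itgal share was higher and the Itgav share lower in every A20 deletion library. Among the 8 beta chains, Itgb5 held 68.9%, 73.3% and 71.5% in A20 deletion and 68% and 67.7% in control libraries, and Itgb2 held 21%, 17.3% and 19.4% in A20 deletion and 18.2% in both controls. Itgb1 held 9.29%, 8.67% and 8.52% in A20 deletion and 12% and 12.2% in control libraries. A share falls where another chain rises, so it does not by itself show a change of that chain. Per length, Itgam and Itgb5 thus remained the leading alpha and beta chain in all 5 libraries.

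The wider adhesion pathway was read from 6 lists, 98 tested genes in all. Of these edgeR called 4 higher and 2 lower, where 2.08% of all tested genes were called higher and 0.507% lower. At an unadjusted p under 0.05 by edgeR there were 37 of the 98, where 21.0% of all genes had such a p. Of the other integrin chains, 10 of 19 were tested, 1 was called higher and 1 lower (median log2 fold change 0.75, against 0.05 over all tested genes). Among these 10, 8 had an unadjusted p under 0.05 by edgeR. Itgax, the alpha chain of complement receptor 4 and a marker of activated microglia, stood at 341.5, 151.3 and 225.7 CPM in A20 deletion and at 43.32 and 35.41 CPM in control libraries (log2 2.61, SE 0.36, 6.08-fold, edgeR adjusted p = 0.0174). Itgb3, a partner of Itgav, fell to 61.51, 47.09 and 41.05 CPM in A20 deletion, against 140.8 and 132.9 CPM in control libraries (log2 -1.46, SE 0.20, edgeR adjusted p = 0.0175). Both genes thus share a partner chain with genes described above, Itgb2 for Itgax and Itgav for Itgb3.

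Of the other immunoglobulin and junctional adhesion molecules, 15 of 20 were tested, 1 was called higher and 1 lower (median 0.13). Among these 15, 8 had an unadjusted p under 0.05 by edgeR, where 21.0% of all genes had one. Madcam1, known as the mucosal ligand of the alpha-4 beta-7 integrin, stood at 16.63, 9.119 and 19.25 CPM in A20 deletion and at 0.7113 and 0.6415 CPM in control libraries, where it had 10 reads each (log2 4.45, SE 0.45, 21.9-fold, edgeR adjusted p = 0.00683). Jam2, a junctional molecule that can bind VLA-4, fell to 75.98, 83.72 and 60.81 CPM in A20 deletion, against 143.4 and 142.9 CPM in control libraries (log2 -0.96, SE 0.18, edgeR adjusted p = 0.0453). Within this list the direction therefore differed from gene to gene.

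Of the selectins, their ligands and modifying enzymes, 17 of 21 were tested and edgeR called 0 (median -0.16), DESeq2 2 and limma-voom 0. In this list 4 had an unadjusted p under 0.05 by edgeR, where 21.0% of all genes had one. The selectins Sele and Selp had 0 reads in both controls. Cd44, the hyaluronan receptor and a selectin ligand, stood at 12.65, 7.232 and 7.232 CPM in A20 deletion and at 3.77 and 3.143 CPM in control libraries and was not called (log2 1.39, edgeR adjusted p = 0.109). Podxl, a sialomucin, had 65, 15 and 20 reads in A20 deletion and 3 in each control library (edgeR adjusted p = 0.0947). Of the genes that activate integrins from inside the cell, such as talin and kindlin, 18 of 22 were tested and edgeR called 0 (median -0.10), with 1 at an unadjusted p under 0.05 and 0 called by DESeq2 or limma-voom. That 1 was Flna, which encodes filamin, a competitor of talin for beta tails (log2 -0.69, edgeR adjusted p = 0.203). Apbb1ip, the adaptor RIAM that links Rap1 to talin, had the next smallest p (log2 -0.35, edgeR adjusted p = 0.238). Without A20 deletion replicate 1, edgeR called 2 genes higher and 3 lower in the selectin list and 4 lower in the activation list. That fit called 32.4% of all genes, 15.7% higher and 16.7% lower.

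Of the genes that signal downstream of bound integrins, 26 of 27 were tested, 1 was called higher and 0 lower (median 0.02). Among these 26, 9 had an unadjusted p under 0.05 by edgeR, where 21.0% of all genes had one. Fgr, a Src family kinase that acts below beta-2 integrins in myeloid cells, stood at 21.05, 18.63 and 17.21 CPM in A20 deletion and at 8.252 and 7.12 CPM in control libraries (log2 1.30, SE 0.21, edgeR adjusted p = 0.0291). Bcar1, the adaptor p130Cas, had the next smallest p on at most 28 reads in a library (edgeR adjusted p = 0.0977). Of the integrin ligands and carriers of latent TGF-beta, 12 of 20 were tested and 7 had an unadjusted p under 0.05 by edgeR. Among these 12, 1 was called higher and 0 lower (median 0.46). That ligand was C3, whose fragment iC3b binds the Itgam and Itgax integrins, at 318.9, 79.4 and 198.9 CPM in A20 deletion and 12.24 and 11.67 CPM in control libraries (log2 4.06, SE 0.60, edgeR adjusted p = 0.0215). Fibronectin (Fn1), the matrix ligand of VLA-4, was not called (log2 2.13, edgeR adjusted p = 0.137). Over the 6 lists, the median log2 fold changes ran from -0.1 to 0.48 without control replicate 1 and from -0.17 to 1.06 without control replicate 2. These fits rest on a lone control, so their calls are not counted here. Without A20 deletion replicate 1 edgeR called 44 of 97 genes, in the fit that called 32.4% of all genes. Without A20 deletion replicate 2 or 3 it called 4 and 2 (1.53% and 0.769% of all genes). DESeq2 called 19 of the 98 and limma-voom 5, where they called 9.07% and 1.72% of all genes.

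**Figure D4:**
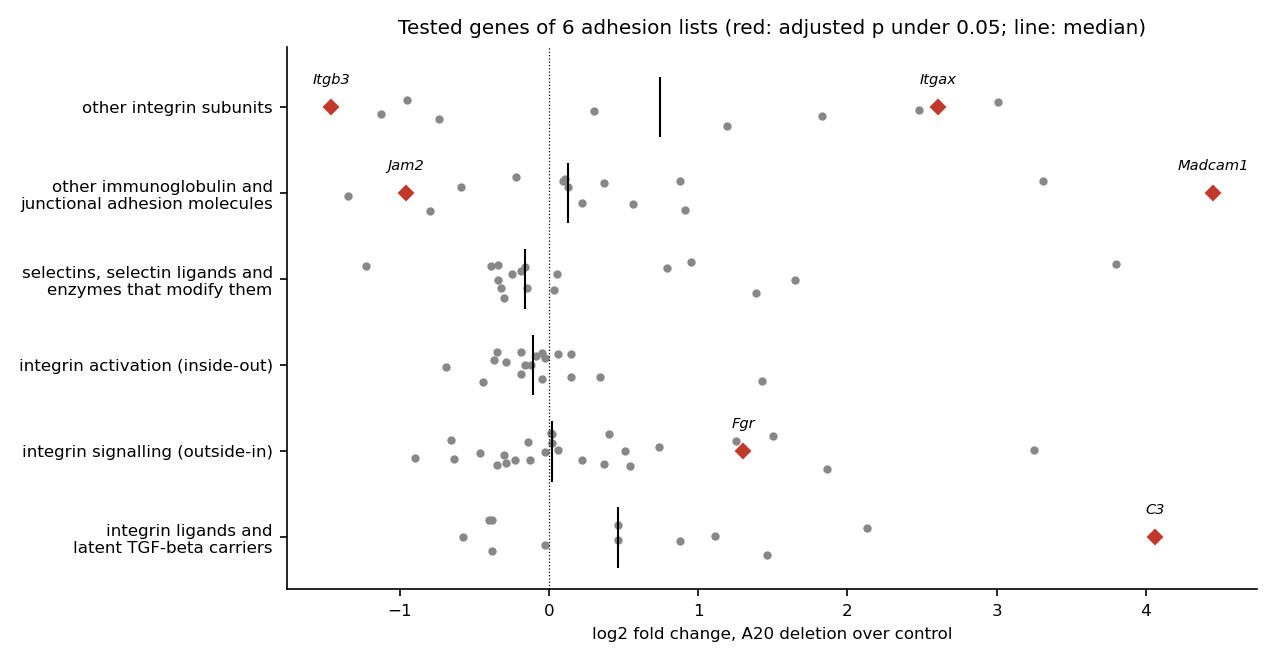
Log2 fold change, A20 deletion over control, of each tested gene in 6 lists of adhesion genes; vertical scatter only separates points, black lines are list medians, and red diamonds are genes with an edgeR adjusted p under 0.05. The 6 called genes are Itgax, Madcam1, Fgr and C3 to the right of 0 and Itgb3 and Jam2 to the left, and the 2 lists without a diamond hold the selectin genes and the integrin activators.

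Vcam1 is also expressed by endothelium and Itgal by lymphocytes and monocytes, so markers of those cells were read beside them. The cells had been sorted for eYFP, and whether other cells passed that gate was not tested. The 13 endothelial and mural markers summed to 106.4, 40.72 and 56.94 CPM in A20 deletion and to 23.76 and 25.6 CPM in control libraries. Vcam1 was above this sum in every A20 deletion library (236.0, 97.87 and 134.1 CPM) and below it in both controls (15.44 and 15.84 CPM). Of the 13 markers, 6 lay above both controls in every A20 deletion library, as 21.8% of all tested genes did. Of the 13, 9 were highest in A20 deletion replicate 1, where Vcam1 was highest too. Of the 11 tested, edgeR called 0, DESeq2 1 and limma-voom 0. At an unadjusted p under 0.05 by edgeR there were 5, where 21.0% of all genes had such a p. Kdr, a receptor of vascular growth factor and the marker with the highest CPM among them, stood at 56.14, 17.92 and 17.32 CPM in A20 deletion and at 13.37 and 12.19 CPM in control libraries (log2 1.25, SE 0.54, edgeR adjusted p = 0.241). The fold changes of the 11 tested markers ranged from -0.11 to 3.67 on the log2 scale (median 1.57), beside 3.32 for Vcam1. Those closest to or above Vcam1 were Cldn5, an endothelial tight junction protein (log2 3.23, SE 1.10, 9.39-fold, edgeR adjusted p = 0.178), Tie1 (3.67, SE 1.36, 0.199) and Ly6c1 (3.07, SE 1.20, 0.213), none of which was called. Cldn5 stood at 19.75, 2.673 and 7.436 CPM in A20 deletion and at 0.1423 and 1.924 CPM in control libraries.

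The 16 T and NK cell markers summed to 10.83, 7.311 and 6.213 CPM in A20 deletion and to 0.9248 and 1.604 CPM in control libraries, and 12 of them, the CD3 chains Cd3d, Cd3e and Cd3g included, had 0 reads in both controls. No marker of this list passed 46 reads in any library. Itgal was above the sum of this list in every library (36.56, 10.53 and 28.93 CPM in A20 deletion, 2.632 and 2.309 CPM in controls). Of the 2 T and NK cell markers tested, edgeR called 0, DESeq2 1 and limma-voom 0. Both had an unadjusted p under 0.05 by edgeR, where 21.0% of all genes had one. Cd4 had the highest CPM of the list (3.985, 2.673 and 2.75 in A20 deletion, 0.5691 and 1.026 in controls). The 10 monocyte markers summed to 414.0, 418.6 and 455.6 CPM in A20 deletion and to 313.7 and 51.06 CPM in control libraries, most of it from Nr4a1. Plac8 was called higher among the 8 tested. Of the 10, 5 lay above both controls in every A20 deletion library, as 21.8% of all tested genes did. Ccr2 lay below both controls, at 8.144, 5.188 and 5.5 CPM in A20 deletion and 11.52 and 8.211 CPM in control libraries. It was not called (log2 -0.65, edgeR adjusted p = 0.271). The 10 neutrophil markers summed to 11.61, 1.494 and 3.667 CPM in A20 deletion and to 23.05 and 0.449 CPM in control libraries, so the groups overlapped. The highest CPM among them was that of S100a9.

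Of the remaining lists of other cells, the B cell markers summed to 386.0, 424.0 and 409.1 CPM in A20 deletion and 341.1 and 274.7 CPM in control libraries, most of it from Ighm. Border macrophage markers, with Mrc1 the highest, summed to 111.2, 95.98 and 107.5 CPM in A20 deletion and 62.03 and 135.2 CPM in controls, and the groups overlapped. Dendritic cell markers, most of it from Siglech, which microglia express themselves, summed to 778.5, 1329 and 1012 CPM in A20 deletion and 833.3 and 721.7 CPM in controls. Astrocyte markers, with Slc1a3 the highest, summed to 199.8, 422.9 and 428.0 CPM in A20 deletion and 177.1 and 256.7 CPM in controls. Oligodendrocyte markers, with Cnp the highest, summed to 258.6, 370.1 and 367.5 CPM in A20 deletion and 195.5 and 223.4 CPM in controls, and neuronal markers, with Snap25 the highest, to 7.884, 12.5 and 10.39 CPM in A20 deletion and 5.406 and 3.015 CPM in controls. The groups also overlapped in the dendritic cell and astrocyte sums, and did not overlap in the B cell, oligodendrocyte and neuronal sums. In these 6 lists edgeR called 1 tested gene, the astrocyte marker Aldh1l1 (higher). The part of other cells in the values of Vcam1 and Itgal was not tested.

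**Figure D5:**
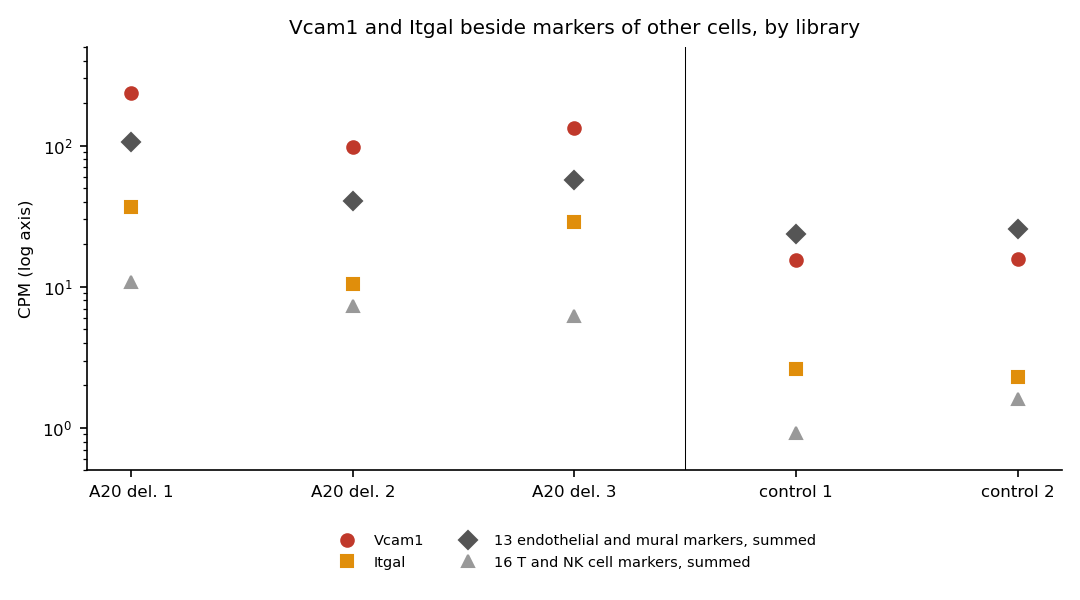
CPM (log axis) of Vcam1 and Itgal in each library beside the summed CPM of 13 endothelial and mural markers and of 16 T and NK cell markers, A20 deletion left of the vertical line and control right of it. Vcam1, Itgal and both marker sums are higher in all A20 deletion libraries than in either control, and Vcam1, Itgal and both sums are highest in A20 deletion replicate 1.

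Genes with the most similar pattern were found by the root mean square difference of log2 CPM, centred on each gene's mean over the 5 libraries. Nearest to Vcam1 was Oasl2, an interferon-induced gene of the oligoadenylate synthetase family (difference 0.0641 log2 units), at 240.1, 107.9 and 140.6 CPM in A20 deletion and 17.0 and 18.35 CPM in control libraries. Next were Cfb, complement factor B (0.0974), with 43, 19 and 19 reads in A20 deletion and 1 and 2 in control libraries, and Usp18, the protease that removes ISG15 (0.138). The log2 CPM were taken with an added prior count of 2, which shrinks the differences of genes with few reads. The fitted log2 fold change of Cfb was 4.44, larger than the 3.32 of Vcam1. Nearest to Selplg, the gene with the highest level per length, were Mrps22 (0.0213), Magohb (0.0279) and Pithd1 (0.0341), whose fold changes, like that of Selplg, were small (log2 -0.23, -0.19 and -0.17) and not called. With 5 libraries in 2 groups such likeness is a description of these libraries.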

How the data were processed

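Sorted eYFP-positive microglia gave 3 A20 deletion and 2 control libraries (NEBNext Ultra II, 10 ng input, per the labels' protocols). The deposited values are raw counts per Ensembl gene, not normalized. Per the submitters' processing notes the tools were STAR 2.4.0j, featureCounts and DESeq2 1.22.1, with build GRCm38. Strand setting, annotation release and handling of multi-mapping reads were not given in the sources used here. Of 41388 genes, 40340 matched a GENCODE M21 symbol and 1048 did not. Of 250 list entries, 2 were found by an older symbol and 1 (Ighd) was not found.

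The tests ran in edgeR 4.0.16 (R 4.3.3) after filterByExpr (minimum count 10, minimum total 15), with TMM scaling (trimmed mean of M values) and the quasi-likelihood test over all 12240 genes, two-sided, Benjamini-Hochberg threshold 0.05. The standard error is the fold change divided by the square root of F and is approximate. Values per length use the union of GENCODE M21 exons. Ratios were tested with scipy 1.17.1. On simulated counts the procedure recovered 16% of genes changed 2-fold and 68.8% of those changed 4-fold (median 11881 genes), and 9.94% of its calls were false. The simulated counts were drawn separately for each gene, so no simulated library stood apart as A20 deletion replicate 1 did. These rates may therefore not hold for the real libraries. Alternatives were DESeq2 1.42.0, limma-voom (limma 3.58.1), other scalings and filters, a robust fit, removal of a length trend or of mitochondrial genes, a replicate block, and leaving out libraries, 17 in all beside the one reported. The genes named are the 10 members, Tnfaip3, up to 4 called genes of each list (the 2 with the smallest p where fewer than 2 were called), the marker with the highest CPM in each list of other cells, and the 3 nearest genes of Vcam1 and Selplg. Fcrls, Plac8, Ccr2, Aldh1l1, Cldn5, Tie1 and Ly6c1 were named after their values were seen. The members and lists were chosen with earlier results of these data known. Protein sequences were not used here.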

Additional observations from a re-analysis of the deposited data

How the results depend on the processing

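Of 169 comparisons of a member's fold change under an alternative with the reported one, 153 kept direction and side of the threshold, 6 lost the call, 5 gained it and 5 changed sign. All sign changes concerned genes that were not called. They were Itgam (0.07 without A20 deletion replicates 2 and 3), Itgb2 (-0.04 without A20 deletion replicate 1) and Itga4 (-0.05 with limma-voom, -0.66 without A20 deletion replicate 1, -0.04 without control replicate 1). When 1 library was left out, Itgb2 ranged from -0.04 to 0.25 and Itga4 from -0.66 to 0.45. The log2 ratio of Itga4 to Itgb1 ranged from -0.11 to 0.59 when 1 library was left out. The number of members called higher was 1 with limma-voom and 0 to 2 when 1 library was left out. The number called lower was 1 with DESeq2, 1 without a filter and 0 to 3 when 1 library was left out. Over all genes 1110 were called by DESeq2, 211 by limma-voom, 1701 without a filter and 0 to 3923 when 1 library was left out; without control replicate 2 edgeR called 0, with 1323 at an unadjusted p under 0.05. The cause of these differences was not tested. Over all genes the median log2 fold change was 0.05, with 0.11 under upper quartile scaling and 0.17 without a filter, which tests more genes. With the replicate number as a replicate block, 260 genes and the same 2 members were called (Vcam1 3.28, Itgal 3.02). Deviations of equally numbered libraries correlated at 0.26 and 0.167, but with 2 pairs the numbers are not shown to pair the samples. Itga4 was below the filter of 5 CPM and has no value there. Genes with few reads, such as Itga4, Podxl, Bcar1, Cfb and the T and NK cell markers, are limited by depth.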
